A study of Mus musculus with 6 samples.

Results

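The 43 genes described here encode proteins of the lysosome and of the vacuolar proton pump (V-ATPase) that acidifies it. They were taken from a list of symbols and matched by symbol to the Ensembl gene IDs of the count table. All 43 were found, among 28786 gene IDs in all. The rule that picks them uses no measured value, but the list was chosen with earlier results of these data known. They fall into 3 subgroups: 8 genes of the lysosomal membrane, 21 genes of hydrolases and other luminal proteins, and 14 genes of V-ATPase subunits and their accessory proteins. Npc2 is counted with the membrane genes beside its partner Npc1, although its protein is soluble. Psap and Grn, listed with the hydrolases, encode precursors of enzyme activators and of granulins and not enzymes.

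RNA came from haematopoietic stem cells (HSCs) from bone marrow of C57BL/6 mice, wild type and 6 to 8 weeks old, sorted with TMRM, a dye drawn into mitochondria by their membrane potential. The groups were 3 TMRM-high and 3 TMRM-low libraries, and all 6 shared strain, genotype, age range and gate. By the labels, the gate took cells without lineage markers and CD48 and with Sca-1, c-Kit and CD150, and 1500 cells went into each library. The labels name no further treatment. They do not tie the libraries to individual mice, and the spread behind each p-value, that between libraries, may be technical.

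The lysosome breaks down proteins, lipids, sugars and worn-out organelles with hydrolases that work at acid pH. The V-ATPase makes that acid: its V1 sector burns ATP on the cytosolic face, and its V0 sector lets protons through the membrane. In HSCs, lysosomal activity is known to go along with the clearing of mitochondria and with the choice between quiescence and division.

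Total estimated counts were 14270069 to 22070594 in TMRM-high against 15930495 to 18431567 in TMRM-low libraries. The sorted cells did not carry HSC markers alone. Markers of HSCs summed to 556 to 569 CPM (counts per 1000000, on TMM-scaled library sizes) in TMRM-high against 820 to 877 in TMRM-low libraries, and markers of neutrophils to 15088 to 15501 and 3621 to 3966. Of the 12 HSC markers, 4 were lower and 1 was higher in TMRM-high libraries (edgeR adjusted p below 0.05). Procr, 1 of the 4, was at 3.28 to 3.89 CPM in TMRM-high against 24.5 to 44.1 in TMRM-low libraries. Gata2, the higher one, was at 213 to 223 against 128 to 153 CPM. Without Ly6a and Hlf, the HSC sum was 477 to 480 against 483 to 571.5 CPM. Of the genes of the gate, Ly6a (Sca-1) was at 28.2 to 32.6 against 162.9 to 176.5 CPM, lower in TMRM-high libraries (edgeR adjusted p = 1.0e-05), and Slamf1 (CD150) at 5.08 to 6.17 against 1.03 to 8.99 CPM. Every member had at least 119 counts in every library. The spread was narrower among TMRM-high than among TMRM-low libraries. Over 10775 genes, the chi-square of a pair of TMRM-high libraries, divided by its degrees of freedom, ran from 3.90 to 7.39, and that of a TMRM-low pair from 47.8 to 55.5. Over the members, the median coefficient of variation was 4.41% in TMRM-high against 16.8% in TMRM-low libraries. Over all genes tested it was 8.03% and 28.2%. The model uses 1 spread for both groups. Each call below was therefore also tried with the TMRM-high libraries summed into 1.

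Of the 43 members, 8 were higher and 3 lower in TMRM-high libraries, and 32 did not pass the test. A call is an adjusted p below 0.05 in edgeR's quasi-likelihood test, with Benjamini-Hochberg adjustment over the 13662 genes tested. Over all genes tested, 5.84% were called higher and 5.12% lower, against 18.6% and 6.98% of the members. The members were more abundant, with a median of 95.0 CPM against 23.6 CPM over all genes tested, so these shares do not compare genes of like level. By subgroup the counts were as follows. Of the V-ATPase genes 5 were higher and none lower, with a median log2 fold change (TMRM-high minus TMRM-low) of 0.27. Of the hydrolase and luminal genes 1 was higher and 3 lower, with a median of -0.24. Of the membrane genes 2 were higher and none lower, with a median of -0.07. The median over all genes tested was -0.03. These counts and medians describe the lists, and the difference between the subgroups was not tested. With the TMRM-high libraries summed, 2 members (Cd63 and Atp6ap2) were higher and none lower, while 0.629% of all genes were called higher and 0.307% lower. The 9 calls lost there kept their direction. Without TMRM-high replicate 1, 2 or 3, 3 members were called higher and 1 to 2 lower, and without TMRM-low replicate 2 or 3, 5 were called lower.

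**Figure D1:**
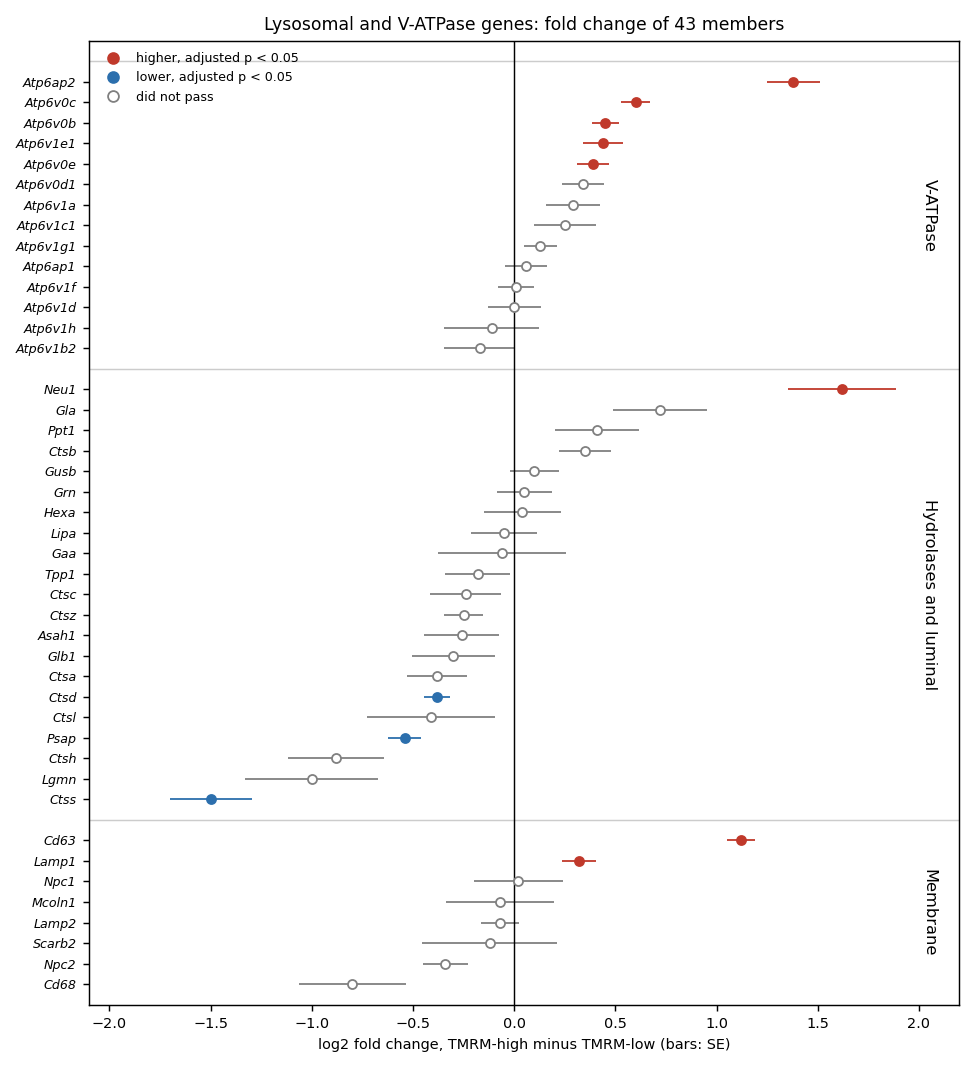
Log2 fold change, TMRM-high minus TMRM-low, of each of the 43 members (points) with its standard error (bars), grouped by subgroup. Filled red points were called higher and filled blue points lower at an adjusted p below 0.05, and open points did not pass; the V-ATPase points lie mostly right of 0 and the hydrolase points mostly left of it.

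In 20 members the values of the 2 groups did not overlap. In 11 of them all TMRM-high libraries were above all TMRM-low libraries, and in 9 they were below, which is 25.6% and 20.9% of the members. Over all genes tested these shares were 18.4% and 17.0%. The higher ones were 6 V-ATPase, 3 hydrolase and 2 membrane genes. The lower ones were 7 hydrolase and 2 membrane genes and no V-ATPase gene.

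Many lysosomal genes are known to carry E-box-like elements near their start, which transcription factors of the TFEB family bind. Promoters of 35 members, 250 bases before to 50 after a RefSeq start (GRCm38.p6), were searched for the hexamer CACGTG and for the octamer TCACGTGA, which holds the hexamer. Both read the same on the 2 strands. The hexamer was present in 13 of 35 members (37.1%) and in 8.09% of the 27025 genes with a promoter. The octamer was present in 7 members (20%) and in 1.12% of those genes. By subgroup the hexamer was found in 2 of 7 membrane, 7 of 18 hydrolase and 4 of 10 V-ATPase genes. The stretches below show how the elements are spaced in members that rose, fell or did not pass, so that the sequences can be set beside the values that follow. They are written 5′ to 3′ on the strand of the gene, and capitals mark the octamer, or the hexamer where its flanks differ.
Lamp1 (chr8:13159085-13159160, plus strand): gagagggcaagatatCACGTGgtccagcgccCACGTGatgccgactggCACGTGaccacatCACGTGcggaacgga
Atp6v0b (chr4:117887330-117887380, minus strand): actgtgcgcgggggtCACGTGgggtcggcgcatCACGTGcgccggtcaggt
Ctsd (chr7:142387905-142387940, minus strand): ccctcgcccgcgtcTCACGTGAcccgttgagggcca
Gla (chrX:134601179-134601247, minus strand): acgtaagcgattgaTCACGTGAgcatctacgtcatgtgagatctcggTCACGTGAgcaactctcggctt
Mcoln1 (chr8:3500433-3500494, plus strand): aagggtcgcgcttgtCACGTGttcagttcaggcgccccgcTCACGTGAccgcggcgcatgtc
Atp6v1a (chr16:44139370-44139405, minus strand): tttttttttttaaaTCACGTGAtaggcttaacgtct

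Lamp1 carried 4 hexamers centred between 58 and 12 bases before its start, and Atp6v0b carried 2, centred 33 and 15 bases before. Ctsd held an octamer 95 bases before its start and a further hexamer 242 bases before. Of the 11 called members, 4 had a match, beside 13 of all 35 members with a promoter (37.1%). They were Lamp1, Atp6v0b, Atp6v0e and Ctsd, and Ctsd differs from the other 3 in the direction of its change. Whether a match goes along with a call was not tested. No match was found in these windows of Cd63, Atp6ap2, Atp6v0c, Atp6v1e1, Neu1, Ctss or Psap. A match describes letters in a window and does not show binding.

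**Figure D2:**
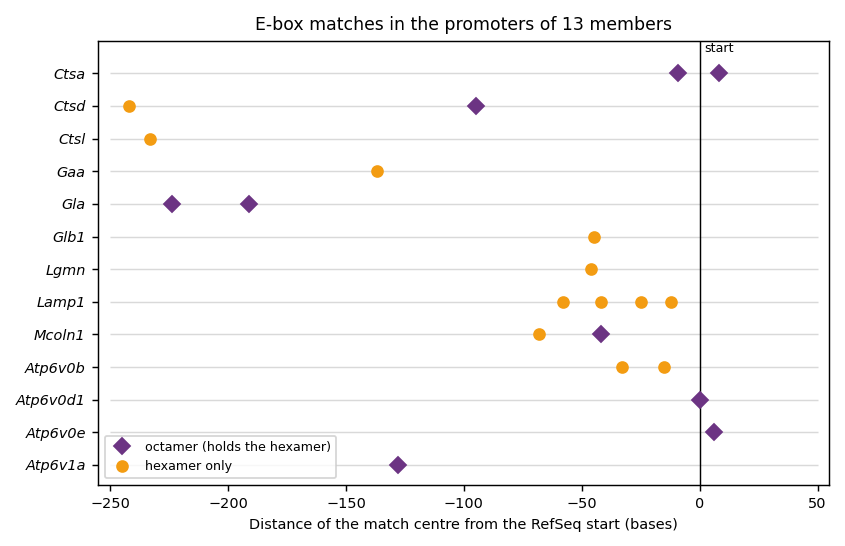
Distance in bases of each E-box match from the RefSeq start (vertical line at 0) in the 13 members that hold one, with diamonds for the octamer and circles for the hexamer alone. Lamp1 has 4 matches between 58 and 12 bases before its start, and the matches of Atp6v0d1 and Atp6v0e lie at or just after the start.

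Of the 4 V0 genes among the members, 3 (75.0%) were called higher in TMRM-high libraries, against 5.84% of all genes tested. In all 4 the TMRM-high values lay above every TMRM-low value, as they did in 18.4% of all genes tested. Of 8 V1 genes 1 (12.5%) was called higher, and in 1 (12.5%) the TMRM-high values all lay above. V0 genes outside the members did not all lie this way: Atp6v0a1 was at 13.7 ± 1.36 against 15.7 ± 3.05 CPM and Atp6v0a2 at 17.7 ± 1.56 against 24.7 ± 10.2 CPM, and neither passed. The split into V0 and V1 follows the subunit names, and it and these 2 genes were chosen after the values were seen. Summed over the 4 V0 genes, the level was 847, 846 and 864 CPM in TMRM-high replicates 1, 2 and 3. It was 611, 624 and 577.5 CPM in the TMRM-low replicates. Summed over the 8 V1 genes, it was 905, 928 and 958 CPM against 862, 885 and 861 CPM. The ratio of the group means was 1.41 for V0 and 1.07 for V1, and for neither sum did the groups overlap.

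Atp6ap2, which encodes an accessory protein of V-ATPase assembly also known as the prorenin receptor, had the largest change of the subgroup (ENSMUSG00000031007, chromosome X, 12587801 to 12617049 on GRCm38). It was at 205, 224 and 229 CPM in TMRM-high against at 68.2, 94.7 and 90.1 CPM in TMRM-low libraries. The lowest TMRM-high library was thus far above the highest TMRM-low library. The means were 219.7 ± 12.7 and 84.3 ± 14.2 CPM (SD, n = 3), a log2 fold change of 1.38 (SE 0.132, edgeR adjusted p = 0.00072). It kept its call with the TMRM-high libraries summed (adjusted p = 0.045). Atp6ap1, which encodes the other accessory protein of the list, was at 121.7 ± 6.11 against 116.5 ± 12.3 CPM and did not pass (adjusted p = 0.76).

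Atp6v0c encodes the proteolipid that forms most of the rotating ring of V0 (ENSMUSG00000024121, chromosome 17, 24163866 to 24169702). It was at 394, 398 and 403 CPM in TMRM-high against 262, 282 and 243 CPM in TMRM-low libraries. Its log2 fold change was 0.60 (SE 0.0700, edgeR adjusted p = 0.0017). Atp6v0b, which encodes the other proteolipid of the ring, was at 199.5, 198 and 196.5 against 146, 146 and 142 CPM, with the narrowest spread of the subgroup. Its log2 fold change was 0.45 (SE 0.0673, edgeR adjusted p = 0.0056). Atp6v0e, which encodes a small V0 membrane subunit, was at 179, 172 and 187 against 143, 133 and 134 CPM (0.39, SE 0.0771, edgeR adjusted p = 0.018). Atp6v0d1, which encodes the subunit that couples the ring to the central stalk, was at 75.5, 79.0 and 77.3 against 60.8, 63.6 and 58.7 CPM and missed the threshold (0.34, adjusted p = 0.081). These groups did not overlap in any of the 4 genes.

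In the V1 sector only Atp6v1e1, which encodes a peripheral stalk subunit, was called. It was at 110, 106 and 112 CPM in TMRM-high against 75.3, 88.0 and 78.7 CPM in TMRM-low libraries (log2 fold change 0.44 with an SE of 0.0999, edgeR adjusted p = 0.031). The genes of the catalytic head did not pass and differed in sign. Atp6v1a was at 105.8 ± 7.48 against 86.5 ± 13.3 CPM (adjusted p = 0.23) and Atp6v1b2 at 102.3 ± 11.4 against 115.2 ± 27.4 CPM (adjusted p = 0.60). Of 2 further V1 genes, neither passed. Atp6v1f, which encodes a rotor subunit, was at 208.8 ± 7.57 against 206.7 ± 20.2 CPM, and Atp6v1g1, which encodes a stalk subunit, at 184.4 ± 4.21 against 168.3 ± 12.5 CPM. Atp6v1c1, Atp6v1d and Atp6v1h had log2 fold changes between -0.11 and 0.25 and did not pass. Without TMRM-high replicate 1, 2 or 3, Atp6v0b, Atp6v0e and Atp6v1e1 lost their calls, with log2 fold changes that stayed between 0.36 and 0.51 under every alternative tried. With the TMRM-high libraries summed, Atp6v0c lost its call as well (adjusted p = 0.21).

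**Figure D3:**
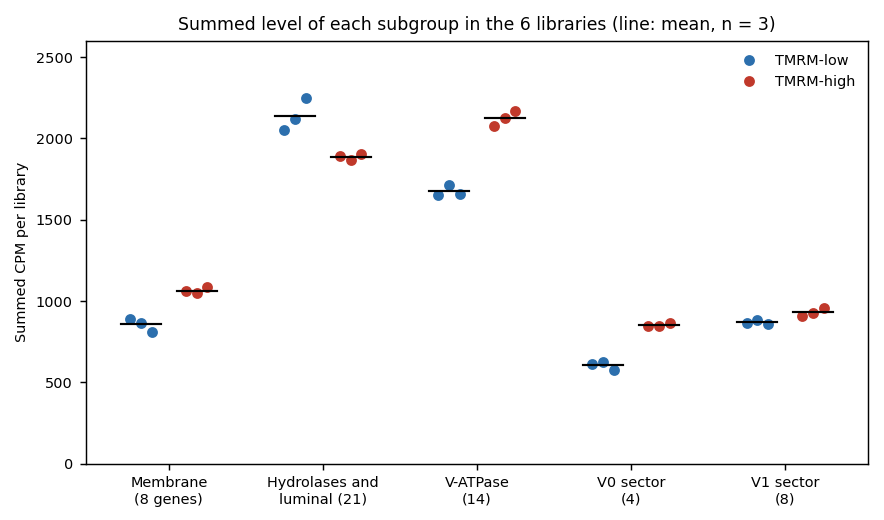
Summed CPM of the members of each subgroup, and of the V0 and V1 genes within the V-ATPase, in each of the 3 TMRM-low (blue) and 3 TMRM-high (red) libraries, with a line at the mean of each group. The V-ATPase sum is higher in all TMRM-high libraries (2076 to 2171 against 1649 to 1715 CPM) and the hydrolase sum lower (1868 to 1904 against 2054 to 2246 CPM).

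Among the membrane genes, Cd63 rose and Lamp1 rose slightly, while 6 did not pass. Cd63 encodes a tetraspanin of late endosomes and secretory lysosomes (ENSMUSG00000025351, chromosome 10, 128900989 to 128912822). It was at 433, 434 and 443 CPM in TMRM-high against at 216, 188 and 198.5 CPM in TMRM-low libraries. The groups lay well apart, and the values within each were close together. Its log2 fold change was 1.12 (SE 0.0699, edgeR adjusted p = 9.7e-05), a 2.17-fold difference, and it kept its call with the TMRM-high libraries summed (adjusted p = 0.018). The summed level of the subgroup was 1048 to 1085 CPM against 812 to 891 CPM, and Cd63 alone carried this difference. The group means of the sum were 1064.2 and 856.6 CPM, and those of Cd63 were 436.5 and 200.8 CPM. Of the 8 membrane genes, 5 had a negative log2 fold change.

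Lamp1 and Lamp2 encode the abundant glycoproteins that line the inner face of the lysosomal membrane. Lamp1 (ENSMUSG00000031447, chromosome 8, 13159161 to 13175338) was at 223, 218 and 233 CPM in TMRM-high against 172, 171 and 197.5 CPM in TMRM-low libraries (log2 fold change 0.32 with an SE of 0.0819, edgeR adjusted p = 0.047). The groups did not overlap, but the call was the weakest of the 11. It was lost without TMRM-high replicate 1, 2 or 3 and without TMRM-low replicate 1 or 2, with an adjusted p between 0.0048 and 1 over all alternatives. Lamp2 was at 133.3 ± 2.88 against 140.3 ± 13.2 CPM and did not pass (adjusted p = 0.67).

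Cd68, which encodes the macrophage glycoprotein macrosialin, was at 19.5, 14.6 and 16.3 CPM in TMRM-high against 39.3, 24.8 and 23.6 CPM in TMRM-low libraries. These groups did not overlap, but the log2 fold change of -0.80 (SE 0.265) did not pass (adjusted p = 0.10). Of the cholesterol export pair, Npc2 was at 188, 188 and 201 against 254, 272.5 and 204 CPM (log2 fold change -0.34, adjusted p = 0.098). Npc1 was at 27.0 ± 3.27 against 26.7 ± 5.74 CPM. Mcoln1, which encodes the lysosomal calcium channel TRPML1, was at 19.3 ± 2.37 against 20.3 ± 5.50 CPM. Scarb2, which encodes the carrier of glucocerebrosidase, was at 14 ± 2.37 against 15.3 ± 5.44 CPM. In Npc1, Mcoln1 and Scarb2 the groups overlapped.

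**Figure D4:**
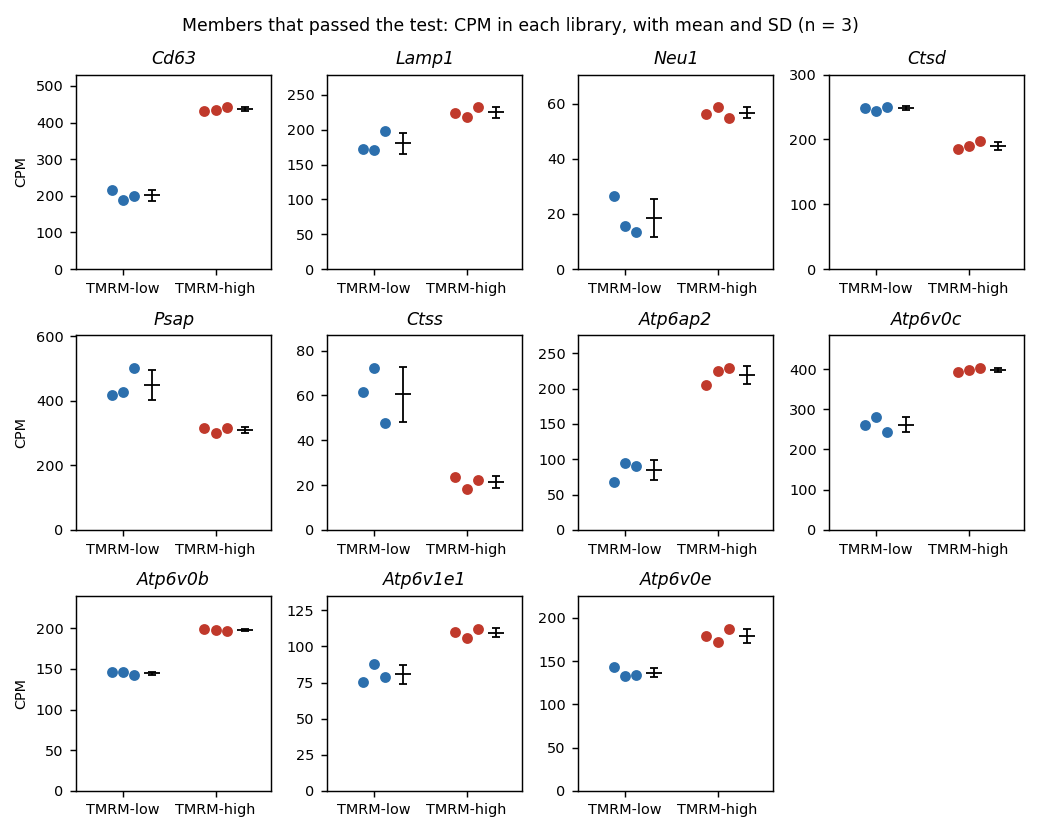
CPM of the 11 members that passed the test in each TMRM-low (blue) and TMRM-high (red) library, with the mean and SD of each group (n = 3) beside the points and every axis starting at 0. The groups do not overlap in any of the 11, and the TMRM-low points are more widely spread than the TMRM-high points for Neu1, Psap and Ctss.

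Among the hydrolase and luminal genes, Ctss, Psap and Ctsd fell and Neu1 rose in TMRM-high libraries. Ctss encodes cathepsin S, a cysteine protease that trims the invariant chain of MHC class II (ENSMUSG00000038642, chromosome 3, 95526786 to 95556403). It was at 23.5, 18.3 and 22.4 CPM in TMRM-high against 61.3, 72.3 and 47.6 CPM in TMRM-low libraries. Each TMRM-low library held at least 47.6 and no TMRM-high library more than 23.5 CPM. Its log2 fold change was -1.50 (SE 0.203, edgeR adjusted p = 0.0040), the largest decrease of the 43 members.

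Ctsd, which encodes the aspartic protease cathepsin D (chromosome 7, 142375911 to 142388038), was at 185, 189 and 197 CPM in TMRM-high against 249, 245 and 250.2 CPM in TMRM-low libraries. The decrease was small and even, with a log2 fold change of -0.38 (SE 0.0644, edgeR adjusted p = 0.0097). Of the 8 cathepsin genes of the list, Ctss and Ctsd, 2 in all, were lower, 6 did not pass and none was higher. Their median log2 fold change was -0.38. The 2 called lower were 25.0% of the 8 cathepsin genes, against 5.12% of all genes tested. In 5 of the 8 the TMRM-high values were all below the TMRM-low values (Ctsa, Ctsd, Ctsh, Ctss and Ctsz). That was 62.5%, against 17.0% of all genes tested. The summed level of the 8 genes was 772 to 777 CPM against 911 to 947 CPM. These counts and this sum hold for the 8 listed genes and not for all cathepsin genes. Ctsg, the cathepsin G gene, stood outside the list, among the neutrophil markers, and was higher. It was at 809, 827 and 831 CPM in TMRM-high against 393, 278 and 302 CPM in TMRM-low libraries (log2 fold change 1.34, edgeR adjusted p = 0.00055). Ctsf, also outside the list, fell and is given below.

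Ctsh, an aminopeptidase and endopeptidase gene, was at 21.9, 23.9 and 22.3 against 47.2, 28.3 and 49.3 CPM and missed the threshold (log2 fold change -0.88, SE 0.236, adjusted p = 0.055). It was called lower in 5 of the 15 alternatives, with DESeq2 (adjusted p = 0.0061) and voom (0.017) among them. Ctsa, a carboxypeptidase gene, was at 99.0 ± 0.514 against 128.7 ± 26.7 CPM (adjusted p = 0.16), and Ctsz, likewise a carboxypeptidase gene, at 188.3 ± 7.29 against 223.5 ± 26.3 CPM (adjusted p = 0.15). Of the listed cathepsin genes, Ctsb alone had a positive log2 fold change and all TMRM-high values on top. It was at 193, 179.5 and 185 against 127, 133 and 177 CPM (log2 fold change 0.35, edgeR adjusted p = 0.13). Ctsc, which encodes the protease that activates granule serine proteases, and Ctsl had overlapping groups. Lgmn encodes legumain, an asparaginyl endopeptidase that processes cathepsins. It was at 6.85, 6.10 and 10.7 against 18.7, 13.3 and 15.2 CPM, apart but not past the threshold (log2 fold change -1.0, SE 0.328, adjusted p = 0.097).

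Of the sphingolipid genes, Psap, the precursor gene of the saposins that present lipids to their hydrolases, fell (chromosome 10, 60277627 to 60302597). It was at 315, 299 and 317 CPM in TMRM-high against 418, 428 and 502 CPM in TMRM-low libraries, with no overlap (log2 fold change -0.54 with an SE of 0.0817, edgeR adjusted p = 0.0069). Gla, which encodes alpha-galactosidase A, lay the other way at 21.1, 18.3 and 20.6 against 13.4, 10.9 and 12.2 CPM, also without overlap, but did not pass (0.72, SE 0.232, adjusted p = 0.092). Hexa, a subunit gene of beta-hexosaminidase, was at 191.0 ± 8.06 against 185.6 ± 54.7 CPM, and its TMRM-low libraries ran from 135 to 243 CPM. Asah1, the acid ceramidase gene, was at 50.7 ± 1.96 against 61.0 ± 15.3 CPM.

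Neu1, which encodes the lysosomal sialidase (ENSMUSG00000007038, chromosome 17, 34931253 to 34935953), had the largest increase of the 43 members. It was at 56.5, 58.9 and 54.9 CPM in TMRM-high against 26.4, 15.7 and 13.3 CPM in TMRM-low libraries (log2 fold change 1.62 with an SE of 0.265, edgeR adjusted p = 0.0090). Even the highest TMRM-low library stayed below every TMRM-high library. The sialidase works in a complex with cathepsin A and beta-galactosidase, and neither partner gene passed: Ctsa is given above, and Glb1 was at 38.8 ± 4.10 against 47.7 ± 11.2 CPM (adjusted p = 0.42). The remaining luminal genes, which are Gaa, Gusb, Lipa, Grn, Ppt1 and Tpp1, had overlapping groups and log2 fold changes between -0.18 and 0.41. Ctsd and Neu1 lost their calls without TMRM-high replicate 1, 2 or 3 and Psap without TMRM-high replicate 2. With the TMRM-high libraries summed all 4 genes lost their calls, with adjusted p-values up to 0.68, and the log2 fold change of Neu1 ran from 1.43 to 1.98 over the alternatives.

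Levels of different genes were set in order per length, as CPM per kb of merged exon. By this measure Atp6v1f stood first, at 196.5 ± 7.12 in TMRM-high and 194.5 ± 19.0 CPM per kb in TMRM-low libraries. By the mean over all 6 libraries, next came Atp6v1g1, Ctsz, Psap and Atp6v0c, but this order did not hold within either group. Psap (113.0 ± 3.60 against 163.8 ± 16.8 CPM per kb) stood below Atp6v0c (117.7 ± 1.40 against 77.5 ± 5.76) in TMRM-high libraries. In TMRM-low libraries Psap stood above it. Cd63 stood at 118.6 ± 1.46 in TMRM-high and 54.5 ± 3.92 CPM per kb in TMRM-low libraries. At the low end were Scarb2, Npc1 and Mcoln1, at 2.23 to 2.69 CPM per kb in either group, and these 3 did not differ beyond their spread. Isoforms with unlike lengths limit this order: with the longest annotated transcript as the length, Atp6v0b moved from 9 to 2 and Lamp2 from 29 to 18.

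**Figure D5:**
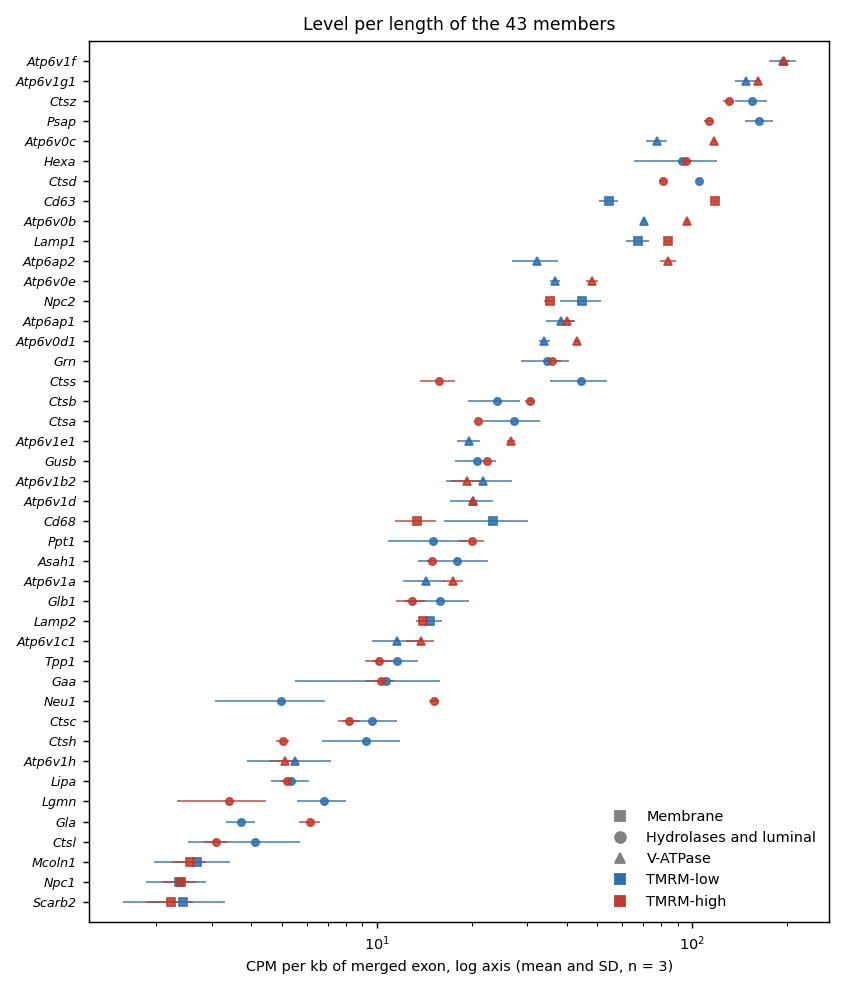
Mean CPM per kb of merged exon (log axis) with SD over 3 libraries for each member in TMRM-low (blue) and TMRM-high (red) libraries, ordered by the mean over all 6, with squares for membrane, circles for hydrolase and triangles for V-ATPase genes. Levels run from about 2.23 for Scarb2 to 196.5 CPM per kb for Atp6v1f, and Ctss, Neu1, Atp6ap2 and Cd63 show wide gaps between the groups.

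Other genes of the pathway were read from 6 lists, to be set beside the 5.84% of all genes tested called higher and 5.12% called lower. Of 31 tested genes of other hydrolases and luminal proteins, 1 was higher (3.23%) and 4 were lower (12.9%), with a median log2 fold change of -0.18. Ctsf, a cysteine cathepsin gene, fell from 26.7 ± 10.5 to 5.12 ± 1.14 CPM (-2.37, SE 0.387, edgeR adjusted p = 0.0089). The serine carboxypeptidase gene Scpep1 fell from 39.6 ± 2.97 to 15.0 ± 1.90 CPM (-1.40, adjusted p = 0.0037) and the heparan N-sulfatase gene Sgsh from 23.2 ± 4.25 to 10.5 ± 0.981 CPM (-1.15, adjusted p = 0.026). The fourth was Gm2a, the gene of the GM2 activator that serves beta-hexosaminidase, at 276.9 ± 10.2 against 359.0 ± 43.3 CPM (adjusted p = 0.043), named after its value was seen. Arsb, which encodes arylsulfatase B, rose from 50 ± 8.96 to 87.1 ± 3.59 CPM (0.80, adjusted p = 0.015). Of these 5 genes Scpep1 kept its call without any 1 library; Ctsf lost it without TMRM-high replicate 2 or 3, Sgsh, Gm2a and Arsb without TMRM-high replicate 1, 2 or 3, and Gm2a also without TMRM-low replicate 1 or 2. With the TMRM-high libraries summed, all 5 lost their calls.

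Of 30 other lysosomal membrane genes none was higher and 3 were lower (10.0%, against 5.12% of all genes tested). These 3 were all of the LAPTM family of small transmembrane proteins (median over the list -0.01). Laptm5, which is expressed in blood cells, was at 572, 566 and 544 CPM in TMRM-high against 752, 775 and 743 CPM in TMRM-low libraries (log2 fold change -0.43 with an SE of 0.0489, edgeR adjusted p = 0.0015). Laptm4b was at 17.9 ± 1.44 against 32.5 ± 1.98 CPM (-0.86, adjusted p = 0.024) and Laptm4a at 55.6 ± 5.14 against 86.9 ± 15.1 CPM (-0.64, adjusted p = 0.038). Of 7 tested other V-ATPase subunit genes, Tcirg1, which encodes the a3 isoform of the V0 subunit that carries the proton path, was higher at 117.0 ± 4.86 against 78.7 ± 11.6 CPM (0.57, SE 0.127, adjusted p = 0.029). This 1 call was 14.3% of the tested list, against 5.84% of all genes tested. None was lower, and the list's median was -0.20. Laptm4a, Laptm4b and Tcirg1 lost their calls without TMRM-high replicate 1, 2 or 3, and all 4 genes, Laptm5 among them, with the TMRM-high libraries summed.

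Of 22 genes of lysosomal sorting and maturation 1 was higher, none lower, and the median was 0.09. The 1 call was 4.55% of the list, below the 5.84% of all genes tested called higher. M6pr encodes the cation-dependent mannose 6-phosphate receptor that carries hydrolases to the lysosome. It rose from 168.4 ± 21.9 to 226.5 ± 2.82 CPM (log2 fold change 0.43 with an SE of 0.101, edgeR adjusted p = 0.035). The other such receptor gene, Igf2r, was at 4.34 ± 1.28 against 11.6 ± 2.08 CPM and missed the threshold (-1.41, adjusted p = 0.052). It was named after its value was seen. Of 23 genes of the TFEB family and of nutrient sensing at the lysosome, 1 was higher and none lower, with a median of 0.16. The 1 call was 4.35% of the list, again below the share over all genes tested. It was Lamtor2, a subunit gene of the Ragulator scaffold, at 161.1 ± 2.61 against 115.3 ± 8.56 CPM (0.48, adjusted p = 0.012). Tfeb, the transcription factor gene, was at 13.7, 10.9 and 12.1 CPM in TMRM-high against 37.5, 15.7 and 13.8 CPM in TMRM-low libraries, where 1 library stood above the others, and did not pass (adjusted p = 0.23). M6pr and Lamtor2 lost their calls without TMRM-high replicate 1, 2 or 3, and M6pr also without TMRM-low replicate 3. With the TMRM-high libraries summed, both lost them too.

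A list of protease inhibitors held cystatins and stefins, which block cysteine cathepsins, and 2 serpins, Serpinb1a and Serpinb6a. Of its 5 tested genes 2 were higher and 1 was lower (median 0.27). Of the 3 that are not serpins 1 was higher and 1 lower, and Cstb, at 71.0 ± 0.678 against 58.9 ± 4.24 CPM, did not pass. Cst3, which encodes cystatin C, a secreted inhibitor of cathepsins, was at 307, 304 and 299.9 CPM in TMRM-high against 629, 561 and 541 CPM in TMRM-low libraries. Its log2 fold change was -0.93 (SE 0.0692, edgeR adjusted p = 0.00022). Cst7, which encodes cystatin F, an inhibitor that acts inside lysosomes of immune cells, was at 151, 149 and 158 against 52.0, 68.1 and 59.0 CPM (1.35, SE 0.118, adjusted p = 0.00045). The 2 cystatin genes thus changed in opposite directions, with no overlap of groups in either. Serpinb1a, which encodes an inhibitor of neutrophil serine proteases, was at 426.1 ± 9.48 against 322.8 ± 26.3 CPM (0.40, adjusted p = 0.012) and lost its call without TMRM-high replicate 1, 2 or 3. With the TMRM-high libraries summed, Cst3 was called (adjusted p = 0.036), while Cst7 (adjusted p = 0.067) and Serpinb1a were not.

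Markers of other blood cells also differed between the groups. In such pooled libraries, fewer cells of a type and less RNA per cell cannot be told apart. Of the HSC markers, whose sums are given above, 1 of 12 was higher in TMRM-high libraries and 4 were lower, and of the neutrophil markers 11 of 14 were higher and none lower. Mast cell, basophil and eosinophil markers summed to 309 to 324 against 56.4 to 70.5 CPM (5 of 9 higher, none lower), and B lineage markers to 2025 to 2052 against 539 to 627 CPM (10 of 10 higher). Dendritic cell markers, MHC class II genes among them, summed to 358 to 372 against 865 to 959 CPM (none of 9 higher, 5 lower). The 5 lower ones were Cd74, the MHC class II genes H2-Aa, H2-Ab1 and H2-Eb1, and Flt3. The other tested markers of this list had overlapping groups and did not pass. Their log2 fold changes were -0.04 for Siglech, -0.30 for Zbtb46, -0.87 for Itgax and 0.91 for Xcr1. Monocyte markers summed to 1473 to 1527 against 1055 to 1124 CPM (3 of 10 higher, 5 lower) and macrophage markers to 131 to 151 against 48.6 to 52.2 CPM (2 of 11 higher, 2 lower). Single genes carried both sums: without Ly6c2 the monocyte sum was 827 to 856 against 940 to 993 CPM, and without Vcam1 and Slc40a1 the macrophage sum was 12.3 to 15.7 against 47.8 to 52.1 CPM. Vcam1 (94.1 ± 3.47 against 0.566 ± 0.534 CPM) and Slc40a1 (33.1 ± 5.72 against 0.0594 ± 0.0579 CPM) were the macrophage markers called higher, and 8 of the 11 had a negative log2 fold change. The 2 called lower were the complement genes C1qa and C1qb, at 0.635 to 1.44 CPM in TMRM-high against 4.30 to 13.4 CPM in TMRM-low libraries.

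Erythroid markers summed to 213 to 236 against 51.4 to 70.4 CPM (6 of 9 higher, none lower), megakaryocyte markers to 398 to 408 against 122 to 143 CPM (2 of 8 higher, none lower) and plasma cell markers to 355 to 361 against 169 to 228 CPM (3 of 6 higher, none lower). T and NK cell markers summed to 608 to 617 against 343 to 437 CPM (1 of 7 higher, 4 lower), and without Nkg7, the 1 called higher, to 53.8 to 59.2 against 152 to 199 CPM. Immediate early genes, which also respond to cell handling, summed to 9749 to 10268 against 5428 to 5959 CPM (13 of 13 higher). Of the markers of all these lists, Epx of eosinophils and Ms4a1 of B cells had no count in TMRM-low libraries. Mast cells and basophils are known for abundant Cd63, and dendritic cells and macrophages for abundant Ctss, Lgmn and Cd68. The part of these cell types in the results above was not tested.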

How the data were processed

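The table deposited by the authors holds estimated counts for each gene, without scaling to depth. Trim Galore 0.5.0, Salmon (given as 0.03.1) and build GRCm38 are listed per the submitters' processing notes; settings and annotation were not given in the sources used here. Per the labels' protocols, cDNA was amplified by 13 PCR cycles and sequenced as paired reads of 150 bases. No step marks strand or molecules, so PCR copies count as reads and overlapping genes cannot be told apart. Opposite-strand genes share 26.8% of the exon bases of Ctsl, 12.8% of Ctsb and of Hexa, 11.8% of Atp6v0b and 9.31% of Lamp1. For Ctsa, Pltp shares 10.5% and Neurl2 6.87%. For Npc1, Rmc1 shares 4.51% and was itself at 21.5 to 45.1 CPM. Same-strand genes share 34.4% of the exon bases of Ctsd, 6.09% of Ctsl and 5.49% of Glb1. The one at Glb1, Tmppe, was itself at 19.5 to 38.8 CPM, and those at Ctsd and Ctsl were not in the count table.

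Symbols and positions come from GENCODE M21 (GRCm38) for 27797 of 28786 IDs. Counts were rounded. Genes were kept by filterByExpr (13662), scaled by TMM and tested with edgeR 4.0.16 (glmQLFit, robust, with the group as the only term) in R 4.3.3. The SE is the log2 fold change divided by the square root of F. No exact permutation test was made, since 3 against 3 cannot go below p = 0.10. Alternatives were scaling by total count, RLE or upper quartile, a filter at a mean count of 50 or none, DESeq2 1.42.0, voom of limma 3.58.1 with quality weights, a block for the replicate number, each library left out, and the TMRM-high libraries summed.

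The members and all lists were chosen with earlier results of these data known. Values are given for every called member and every member whose groups lie apart by a log2 fold change of at least 0.5, then for the 2 most abundant others of each subgroup; further members are given for their roles. Of each pathway list up to 4 called genes with the smallest p are named. Promoters are RefSeq's; Npc1, Ctsb, Ctsh, Asah1, Atp6v1b2, Atp6v1c1, Atp6v1g1 and Atp6v1h had none in the table used here.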

Additional observations from a re-analysis of the deposited data

How the results depend on the processing

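The number of members called higher in TMRM-high libraries was 8, and 10 with DESeq2, 5 with the replicate number as a block, 2 with the TMRM-high libraries summed and 3 to 9 with 1 library left out. The number called lower was 3, and 7 with DESeq2, 5 with limma voom, 0 with the TMRM-high libraries summed and 1 to 5 with 1 library left out. Of the membrane genes, 2 were higher; 1 was without a low-count filter, with voom, with the block and with the summed libraries, and 1 to 2 with 1 library left out. None of the membrane genes was lower, but 2 were with DESeq2, 1 with voom and 0 to 1 with 1 library left out. Of the hydrolase and luminal genes, 1 was higher (2 with DESeq2, 0 summed, 0 to 2 with 1 library left out) and 3 were lower (5 with DESeq2, 0 summed, 1 to 5 with 1 library left out). Of the V-ATPase genes, 5 were higher (3 with the block, 1 summed, 2 to 6 with 1 library left out), and none was lower under any alternative run. Over all members, the low ends came without a TMRM-high library (any of the 3 for higher calls, replicate 2 for lower calls) and the high ends without TMRM-low replicate 3 (and replicate 2 for lower calls). Leaving out a TMRM-high library or summing leaves fewer samples of the less variable group; otherwise the cause was not tested.

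The medians of the 3 subgroups stayed within the spread, at 0.20 to 0.34 for V-ATPase, -0.26 to -0.14 for hydrolase and -0.14 to 0.02 for membrane genes with 1 library left out. Calls were also gained: with DESeq2 those of Cd68, Npc2, Ctsh, Gla, Lgmn and Atp6v0d1, with voom Npc2 and Ctsh, without the filter or with a mean count of 50 Ctsh, and with a TMRM-low library left out Npc2, Ctsa and Ctsb (replicate 3), Ctsh, Ctsl and Atp6v0d1 (replicate 2) and Gla (replicate 1). No called member changed sign. Members near 0 did: Gaa was at 0.04 with voom and with the block, and Atp6v1d at 0.02 with total-count scaling, 0.01 without the filter and with the block, and 0.00 with voom. With 1 library left out, log2 fold changes ran from -0.35 to 0.16 for Scarb2, -0.10 to 0.21 for Npc1, -0.27 to 0.10 for Mcoln1, -0.31 to 0.41 for Gaa, -0.14 to 0.29 for Hexa, -0.13 to 0.06 for Lipa, -0.09 to 0.15 for Grn, -0.32 to 0.03 for Atp6v1b2, -0.12 to 0.09 for Atp6v1d, -0.06 to 0.07 for Atp6v1f and -0.33 to 0.03 for Atp6v1h.

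Deviations from the group mean showed little correlation between libraries of the same number (-0.0139, 0.0165 and 0.0210). The TMRM-high libraries deviated little from each other, so this check cannot tell whether the numbers pair the libraries. Under the block Lamp1, Atp6v0e and Atp6v1e1, and outside the members Sgsh, Gm2a and Laptm4b, lost their calls, and it moved the counts over all genes from 798 higher and 700 lower to 582 and 449. Not every library correlated best with its own number. DESeq2 called 1324 genes higher and 1337 lower, and the summed libraries 86 and 42. Without TMRM-high replicate 1, 2 or 3 there were 250 to 269 higher and 181 to 198 lower, and without TMRM-low replicate 1, 2 or 3 there were 1218 to 1398 and 985 to 1174.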

Other observations

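Of the V-ATPase isoforms outside the members, 5 were at or near 0 in all 6 libraries. Atp6v0a4, Atp6v0e2, Atp6v1b1 and Atp6v1c2 reached at most 0.139 CPM in any library, and Atp6v1e2 had no count, which allows up to 0.136 to 0.208 CPM per library (3 counts). Atp6v1g3, known from kidney, was low but present in every library, at 0.570 ± 0.0178 CPM in TMRM-high against 1.82 ± 0.0734 CPM in TMRM-low libraries, and did not pass (adjusted p = 0.092). Atp6v0d2, known from osteoclasts, was at 3.06 ± 0.485 CPM in TMRM-high against 2.10 ± 0.684 CPM in TMRM-low libraries. The cathepsin gene Ctsk, also known from osteoclasts, had no count in the TMRM-low libraries and at most 0.278 CPM in a TMRM-high library.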
